A study of Mus musculus with 4 samples.

Results

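The tumour suppressor p53 and its regulators and target genes were examined in 4 subclones of a mouse hybridoma that differ in how often they switch antibody class. The set holds 31 genes, and its members are all probe sets whose gene symbol in the platform annotation is among them. It was measured by 57 of 45037 probe sets, which cover 29 of 18193 genes. Trp53 and Bax were not analysed here. The parent line, 36-65, is a hybridoma, that is, the product of fusion between a B lymphocyte and a myeloma cell, and it secretes antibody. Low switching subclones were L25 and L27, and high switching subclones, whose frequent switching in culture the labels call spontaneous, were H23 and H27, with 1 array of total RNA each. All 4 were grown in Dulbecco's modified Eagle's medium with 10% fetal calf serum, NCTC 109 medium, nonessential amino acids, penicillin and streptomycin, and no other treatment is labelled. Each subclone is 1 clone, and the labels do not say whether subclones of a class arose separately, so the p-values reflect nothing beyond the variation among these 4 cultures. In bulk RNA, fewer cells with a transcript and less of it in each cell cannot be told apart.

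The p53 protein is a transcription factor that is kept scarce by the ubiquitin ligase MDM2 and held inactive by its relative MDM4. DNA breaks and other stresses free it, and it then activates genes that stop the cell cycle, repair DNA or kill the cell. MDM2 is itself a p53 target, which closes a feedback loop. In B cells the pathway matters because class switching passes through DNA breaks in the heavy chain locus.

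Values are log2 intensities, and a difference is the mean of the high switching arrays minus that of the low switching arrays. The median probe set of the arrays had an intensity between 38.1 and 39.3, which is 5.25 to 5.30 on the log2 scale. Antibody-secreting cell genes were bright, with class means of 12.46 and 12.57 for Sdc1 (syndecan-1) and 14.42 and 14.46 for Jchain in low and high switching subclones. Of 9 such genes Xbp1 and Tnfrsf17 fell (-0.71 and -0.72, both by limma), where 2.78% of all genes were called lower. Prdm1 had the largest difference, 0.74, without a call (limma adjusted p = 0.119). Differences were positive for 5 of the 9, with a median of 0.03. Of 10 T cell markers 0 passed (1 at an unadjusted p under 0.05 by limma), with summed intensities of 790 to 797 in low and 770 to 784 in high switching subclones. Of 7 erythroid markers 0 passed on the brightest probe set (2 unadjusted by limma), with sums of 1948 to 2341 against 1405 to 1534. Tfrc, which dividing cells of many types express, was the brightest of them at 10.90 against 10.26, and it fell on its other probe sets (-0.71 and -0.73). The fibroblast sum was 298 to 303 against 336 to 349, and 1 of 10 markers passed (Lum, 1.21). The myeloid sum was 1359 to 1528 against 1609 to 1753, and 1 of 11 passed (Itgam, -1.38). Of all genes 2.04% were called higher and 2.78% lower. Cd68, the brightest myeloid marker, read 9.58 and 9.86 in the low and 10.35 and 10.17 in the high switching subclones, without a call (limma adjusted p = 0.109). The part of these markers in the results below was not tested. The fibroblast, erythroid and T cell lists each had genes on both sides of the median probe set. Of the fibroblast genes Col1a1 (4.23 and 4.21) lay below it and Pdgfrb (5.76 and 5.91) above it. Of the erythroid genes Hba-a1 (3.93 and 3.96) lay below it and Klf1 (6.38 and 6.60) above it. Among the T cell genes Cd5 (4.28 and 4.30) lay below it, and Cd3e (6.11 and 6.19) and Zap70 (7.88 and 8.07) above it.

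Promoter sequences around the annotated start (250 bases before it to 50 after, RefSeq, assembly GRCm38.p6) were listed for 23 of the 31 genes, in 32 windows. p53 binds a pair of 10-base elements, here called decamers, separated by up to 13 bases. Each decamer of the p53 consensus has purines before and pyrimidines after a core that begins with C, goes on with a pair of A or T, and ends with G. That C and G were required, and mismatches were counted at the other positions. A pair with no mismatch was found in 0.0731% of all 32851 promoter windows and in 1 member window, at Cdkn1a. With at most 1 mismatch, 0.627% of all windows and 3 member windows (Cdkn1a, Ccng1 and Rps27l) matched. With at most 2 mismatches, 4.09% of all windows and 6 member windows matched, the others being Gadd45a, Sesn1 and Bax. The consensus reads the same on both strands, so 1 scan covers both, and no other motif was searched; the decamer is itself part of the pair. These are matches of letters, not measured binding, and they are printed for 5 target genes whose values are described next and for Ei24, which holds 1 decamer without mismatch. Capitals mark the decamers of the match with fewest mismatches, and among equal matches the pair with the shorter spacer.
Cdkn1a, chr17:29090729-29091028, plus strand: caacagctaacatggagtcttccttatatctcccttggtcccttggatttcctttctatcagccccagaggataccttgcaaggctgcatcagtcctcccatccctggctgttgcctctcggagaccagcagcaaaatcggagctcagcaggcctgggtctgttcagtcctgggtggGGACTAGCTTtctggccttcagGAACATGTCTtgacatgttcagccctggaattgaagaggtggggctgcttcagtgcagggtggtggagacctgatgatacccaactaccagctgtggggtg
Ccng1, chr11:40755237-40755536, minus strand: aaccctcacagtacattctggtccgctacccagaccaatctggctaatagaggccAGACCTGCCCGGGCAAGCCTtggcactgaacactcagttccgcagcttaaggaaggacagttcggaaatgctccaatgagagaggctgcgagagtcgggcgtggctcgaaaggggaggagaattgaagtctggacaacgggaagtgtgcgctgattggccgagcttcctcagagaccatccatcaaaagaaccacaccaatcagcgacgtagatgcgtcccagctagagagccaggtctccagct
Gadd45a, chr6:67037358-67037657, minus strand: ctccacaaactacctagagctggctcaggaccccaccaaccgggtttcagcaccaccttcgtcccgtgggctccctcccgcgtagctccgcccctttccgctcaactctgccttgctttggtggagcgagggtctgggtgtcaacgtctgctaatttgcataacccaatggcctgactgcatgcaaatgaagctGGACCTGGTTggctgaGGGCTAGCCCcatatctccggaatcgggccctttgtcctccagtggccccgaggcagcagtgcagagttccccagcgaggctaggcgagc
Sesn1, chr10:41887189-41887488, plus strand: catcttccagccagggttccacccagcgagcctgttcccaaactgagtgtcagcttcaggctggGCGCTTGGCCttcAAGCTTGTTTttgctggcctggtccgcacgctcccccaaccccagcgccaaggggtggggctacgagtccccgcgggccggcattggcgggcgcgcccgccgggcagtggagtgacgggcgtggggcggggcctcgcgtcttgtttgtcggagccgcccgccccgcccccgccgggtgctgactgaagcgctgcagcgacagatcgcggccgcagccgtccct
Rps27l, chr9:66946163-66946462, plus strand: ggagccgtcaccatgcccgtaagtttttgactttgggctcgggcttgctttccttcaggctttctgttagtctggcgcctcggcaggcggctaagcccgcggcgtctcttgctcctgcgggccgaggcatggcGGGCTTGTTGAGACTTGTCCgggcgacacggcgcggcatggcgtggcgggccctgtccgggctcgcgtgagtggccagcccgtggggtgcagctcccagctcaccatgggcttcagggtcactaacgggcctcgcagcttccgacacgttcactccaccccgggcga
Ei24, chr9:36797285-36797584, minus strand: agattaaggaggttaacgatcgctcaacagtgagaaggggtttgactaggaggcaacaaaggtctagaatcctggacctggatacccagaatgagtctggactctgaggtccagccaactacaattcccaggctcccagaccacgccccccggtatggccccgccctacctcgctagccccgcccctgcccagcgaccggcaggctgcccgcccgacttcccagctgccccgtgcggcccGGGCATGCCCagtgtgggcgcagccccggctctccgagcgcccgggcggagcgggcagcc
In Cdkn1a the marked pair begins 73 bases before the start with a spacer of 12 bases. A second pair that shares its right decamer, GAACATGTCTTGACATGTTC, has no spacer and 1 mismatch. This window belongs to the upstream one of the listed Cdkn1a starts, and the window of the downstream start (chr17:29093519-29093818) held no decamer pair with at most 2 mismatches. In Ccng1 the pair begins 195 bases and in Rps27l 117 bases before the start, both without a spacer and with 1 mismatch. In Gadd45a it begins 56 bases before the start with a spacer of 6, and in Sesn1 186 bases before it with a spacer of 3, both with 2 mismatches. Each of these windows also held a second pair with 2 mismatches, with a spacer of 11 in Gadd45a and 5 in Sesn1. A decamer without mismatch was found in 8.36% of all windows and in 13 member windows, among them that of Ei24, where it begins 10 bases before the start. Likewise 1 of the Sesn1 and 1 of the Rps27l windows held no such pair.

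Setting both classes side by side answers which p53 pathway transcripts go with frequent switching in these subclones. Arrest genes made up most of what rose: Cdkn1a, Gadd45a and Sesn1 were 3.02-fold, 2.26-fold and 1.77-fold higher in high switching subclones. Ei24 was 1.86-fold higher and the death gene Pmaip1 1.90-fold lower. The regulators and the repair genes had no call. Of the 57 probe sets 5 rose and 1 fell, which is 8.77% and 1.75%, where limma (Benjamini-Hochberg adjusted p under 0.05) called 1.5% of all probe sets higher and 2.10% lower. Counting each gene by its brightest probe set, with p-values still adjusted over all probe sets, 4 of 29 genes rose and 1 fell, against 2.04% and 2.78% of all genes. Bright probe sets are called more often: among those with a mean of at least 7 the background was 2.98% higher and 4.22% lower, and 4 of 35 member probe sets rose and 1 fell. The median difference over the 29 genes was 0.11, and 0.01 over all genes. Both high switching arrays lay above both low switching arrays for 22 probe sets (38.6%, against 25.1% of all probe sets) and below them for 11 (19.3%, against 22.2%). Counted by the brightest probe set of each gene, this was so for 12 genes above, against 26.5% of all genes, and 7 below, against 24.9%. Among probe sets with a mean of at least 7 it was so for 14 of 35 above, against 27.9%, and 10 below, against 35.6%.

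**Figure D1:**
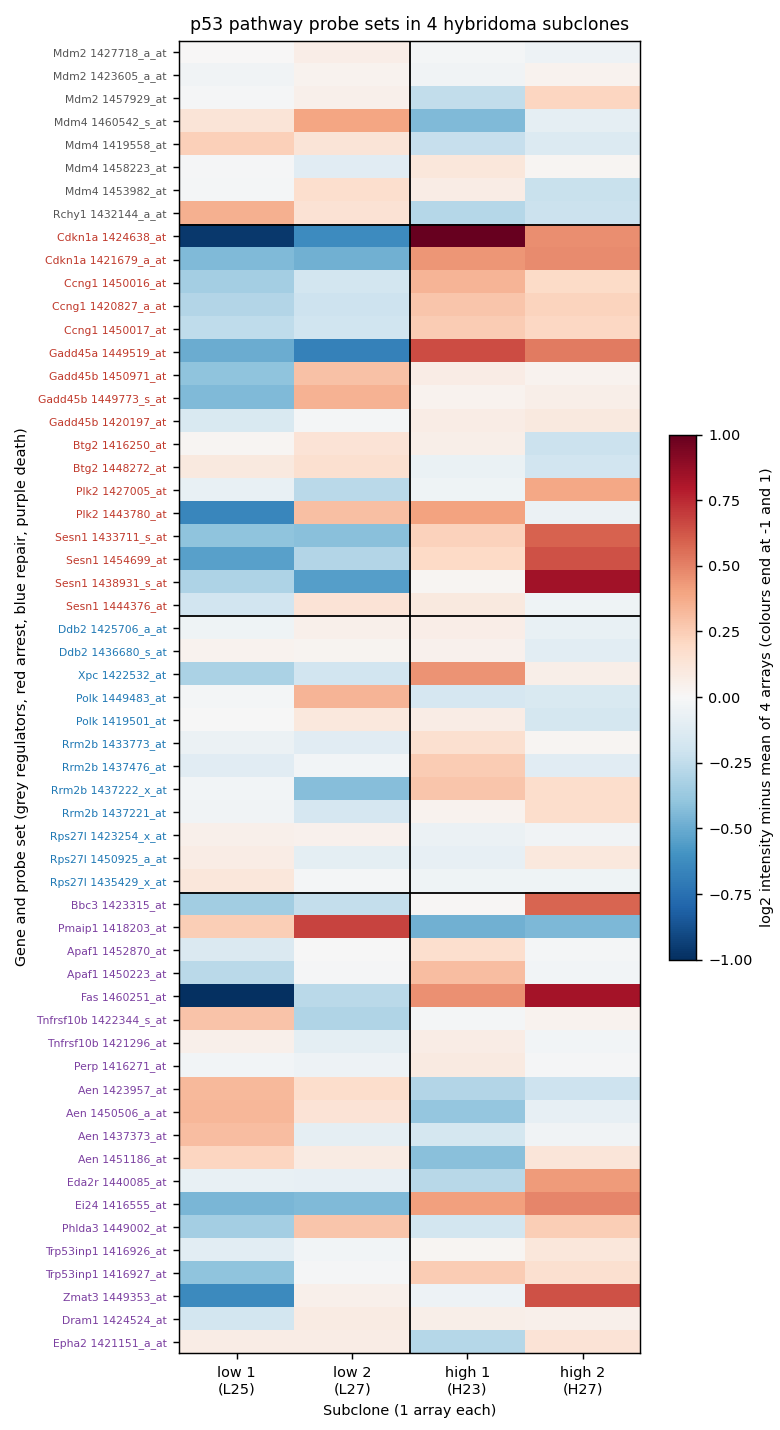
Heat map of the 57 probe sets of p53 pathway genes (rows, by role) on the 4 arrays (columns), as log2 intensity minus the mean of the 4 arrays, with colours ending at -1 and 1. Cdkn1a, Ccng1, Gadd45a and Ei24 are low on both arrays to the left and high on both arrays to the right, and Mdm2 and Rps27l are nearly even on their brighter probe sets.

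With 2 arrays for each class these calls depend on limma's pooled variance, because exact permutation of the labels of 4 arrays has a smallest two-sided p of 0.333. Without L25 only Gadd45a among the member probe sets stayed past the threshold, and without L27 only Fas was past it. Without H23 the probe sets called were Gadd45a and 2 of Sesn1, and without H27 they were Gadd45a and 1 of Cdkn1a. An added term split the arrays by hybridization control signal (L25 and H27 against L27 and H23), a choice made after seeing the data. With it 0 member probe sets passed (limma adjusted p of 0.0600 for Cdkn1a and 0.0880 for Gadd45a), and 58 of all probe sets were higher and 94 lower. The control signal (log2) was 11.32 in L25 and 11.23 in H27 against 10.72 in L27 and 10.79 in H23, so it crosses the classes. Each side of the split holds 1 array of each class, so the differences kept their size (1.60 for Cdkn1a and 1.18 for Gadd45a).

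Arrest targets stop the cell cycle or restrain growth. All 7 genes had values, 3 rose and 0 fell, against 2.04% and 2.78% of all genes, and their median difference was 0.53. Cdkn1a encodes p21, the inhibitor of cyclin-dependent kinases through which p53 holds cells in G1. Its brighter probe set (1424638_at) read 6.60 in L25, 6.93 in L27, 8.70 in H23 and 8.03 in H27. The groups did not overlap, and H23 was the highest. The difference was 1.60 ± 0.24 (SE; limma adjusted p = 0.0278). Its other probe set (1421679_a_at) read 6.54 and 6.50 in the low and 7.42 and 7.45 in the high switching subclones, a smaller and more even difference of 0.92 ± 0.10 (limma adjusted p = 0.0145). The first difference ranged from 1.26 to 1.93 and the second from 0.90 to 0.94 when 1 array was left out, and the first kept its call only without H27, the second in no case.

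Gadd45a, a stress sensor that slows the G2 to M transition and takes part in DNA repair, read 8.54 and 8.36 in the low and 9.69 and 9.56 in the high switching subclones. Members of a class lay close together, and the difference was 1.18 ± 0.12 (limma adjusted p = 0.0114). It ranged from 1.09 to 1.27 with 1 array left out, and the call ended without L27 (limma adjusted p = 0.0523). The related gene Gadd45b did not follow it. On its brightest probe set Gadd45b read 9.95 in L25, 10.65 in L27, 10.43 in H23 and 10.39 in H27, so both high switching subclones lay between the low switching ones, and the difference was 0.11 with a 95% interval from -0.44 to 0.66. No test of Gadd45a against Gadd45b was made.

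Sesn1 encodes sestrin-1, a brake on growth signalling through mTORC1. Its brightest probe set (1433711_s_at) read 8.40 and 8.39 in the low and 9.04 and 9.40 in the high switching subclones. The low switching values were nearly equal and H27 was the highest, with a difference of 0.82 ± 0.15 (limma adjusted p = 0.0421). Another Sesn1 probe set (1454699_at) had a difference of 0.84 and a limma adjusted p of 0.067, while a further one (1438931_s_at) had 0.86 and 0.155. The dimmest read between 3.71 and 4.04 on all arrays, below the median probe set, with a difference of 0.05. The called difference ranged from 0.64 to 1.00 with 1 array left out, and held only without H23.

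Ccng1, cyclin G1, which recruits a phosphatase to MDM2, had no call, although on all 3 of its probe sets both high switching arrays lay above both low switching arrays. The brightest read 10.71 and 10.87 in the low and 11.39 and 11.24 in the high switching subclones. The differences were 0.53 ± 0.12, 0.50 ± 0.11 and 0.46 ± 0.11, and the limma adjusted p was 0.0773, 0.0674 and 0.0798. Plk2, a polo-like kinase, had differences of 0.34 and 0.35 and overlapped between groups on 1 of its probe sets. Btg2, an antiproliferative cofactor of transcript decay, was the arrest gene with the opposite sign. Its brighter probe set read 13.90 and 14.02 in the low and 13.94 and 13.67 in the high switching subclones, a difference of -0.16 with an interval from -0.48 to 0.17. The dimmer Btg2 probe set read 13.17 and 13.24 in the low and 13.01 and 12.89 in the high switching subclones, without overlap. Its difference was -0.26, without a call (limma adjusted p = 0.296).

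**Figure D2:**
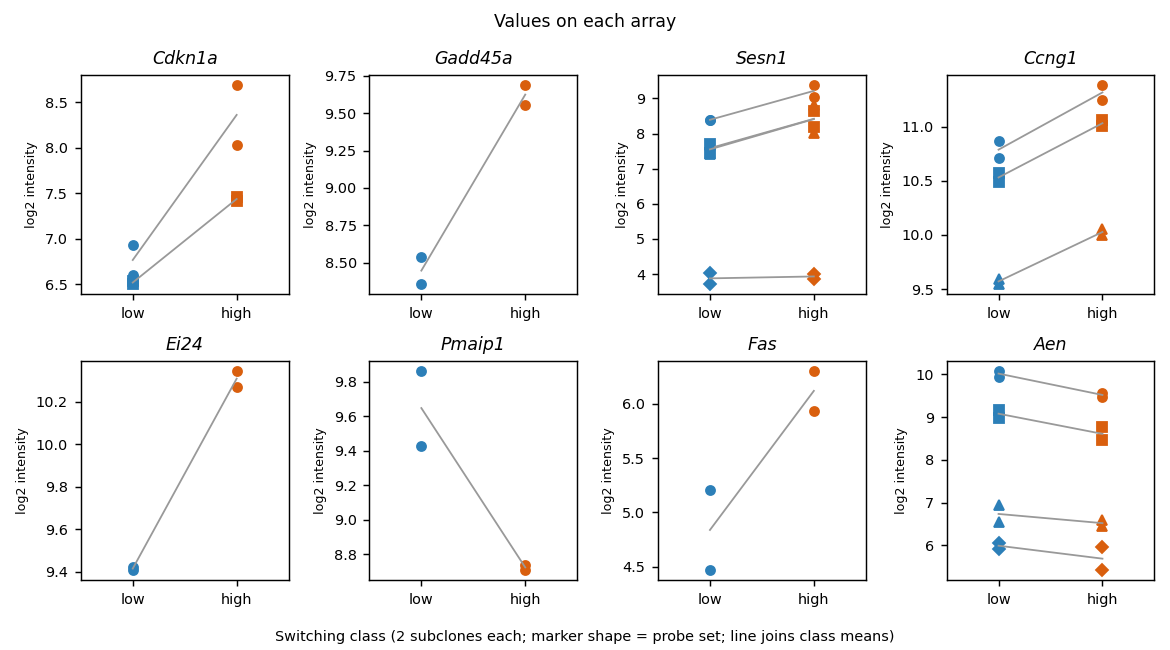
Log2 intensity on each array (vertical axes) of 8 p53 target genes by switching class, with 1 marker shape for each probe set and a line joining class means of the 2 subclones. Cdkn1a, Gadd45a, Sesn1 and Ei24 passed the test as higher on at least 1 probe set and Pmaip1 as lower, while Ccng1, Fas and Aen did not pass.

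Of the regulators, Mdm2, Mdm4 and Rchy1 had values and 0 of 8 probe sets passed (3 at an unadjusted p under 0.05 by limma). Mdm2, the ligase that marks p53 for destruction, had near-equal values in both classes. Its brightest probe set (1427718_a_at) read 14.58 in L25, 14.64 in L27, 14.56 in H23 and 14.53 in H27. Only 60 of 45037 probe sets had a higher mean, so the signal may be near the upper end of the scale, where differences shrink. A second Mdm2 probe set read 13.75, 13.81, 13.74 and 13.81 in the same order, with a difference of 0.00 and an interval from -0.26 to 0.26. The dimmest, at 6.86 to 7.32, is far from the upper end, and had a difference of -0.04 (interval from -0.45 to 0.37).

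Mdm4, which blocks the activation domain of p53, read 8.75 and 9.01 in the low and 8.17 and 8.53 in the high switching subclones on its brightest probe set. The high switching values were lower without overlap, but the difference of -0.53 ± 0.16 did not pass (limma adjusted p = 0.156). A second probe set gave -0.36 without overlap. Of the dimmer probe sets 1 gave 0.13, also without overlap but with the high switching arrays above, and the other -0.15 with overlap. Rchy1, the ubiquitin ligase PIRH2, which also targets p53, read 10.51 and 10.30 in the low and 9.87 and 9.94 in the high switching subclones. Its difference was -0.50 ± 0.12 (limma adjusted p = 0.0887). On the brightest probe set both high switching arrays lay below both low switching arrays for each of the 3 regulators, as they did for 24.9% of all genes and 35.6% of probe sets with a mean of at least 7, and for Mdm2 the difference was only -0.07.

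Repair targets had values for all 5 genes, and 0 of 12 probe sets passed. Without adjustment 2 had a p under 0.05 by limma, as did 8392 of all 45037 probe sets. The median difference of the repair genes was -0.01. Xpc, which recognises bulky DNA damage for nucleotide excision repair, had the largest difference. It read 7.67 and 7.79 in the low and 8.44 and 8.05 in the high switching subclones, a difference of 0.51 ± 0.16 (limma adjusted p = 0.154). Its partner in damage recognition, Ddb2, read 10.12, 10.21, 10.23 and 10.09 in L25, L27, H23 and H27. The groups overlapped on both Ddb2 probe sets, and the difference on the brighter was -0.01 with an interval from -0.28 to 0.27. Rrm2b, the p53-inducible subunit of ribonucleotide reductase, had differences from 0.14 to 0.45 on 4 probe sets, all positive. Polk, a polymerase that copies past lesions, had -0.32 and -0.10. Rps27l, a ribosomal protein paralogue whose listed promoter carries the decamer pair shown above, had differences of -0.10, 0.03 and -0.09 on its 3 probe sets, which read between 13.53 and 13.74 on all arrays, and its transcript may be hard to tell from that of its paralogue.

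Death targets had values for 14 of 15 genes, of which 1 rose and 1 fell, 7.14% each way against 2.04% and 2.78% of all genes. The median difference was 0.12, and 11 of the 14 differences were positive. Ei24, an endoplasmic reticulum protein induced by p53, read 9.41 and 9.42 in the low and 10.27 and 10.35 in the high switching subclones. The members of each class lay close together, and the difference was 0.89 ± 0.11 (limma adjusted p = 0.0156). Pmaip1 encodes NOXA, which neutralises the survival protein MCL1. It read 9.43 and 9.86 in the low and 8.71 and 8.74 in the high switching subclones. The high switching values were nearly equal and below both others, with a difference of -0.92 ± 0.16 (limma adjusted p = 0.0413). Both calls ended when any 1 array was left out, with limma adjusted p-values of 0.0555 to 0.0929 for Ei24 and 0.0522 to 0.128 for Pmaip1.

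Among the other BH3-only genes and receptors, Bbc3 (PUMA) read 8.57 and 8.68 in the low and 8.93 and 9.50 in the high switching subclones. Its difference was 0.59 ± 0.20 (limma adjusted p = 0.182), 0.87 without H23 and 0.30 without H27. The death receptor gene Fas read 4.47 and 5.21 in the low and 5.93 and 6.31 in the high switching subclones. The low switching values were below the median probe set, where intensity need not follow transcript, so the size of the difference of 1.28 ± 0.26 is approximate (limma adjusted p = 0.058). It passed with a variance trend (limma adjusted p = 0.0484). It also passed when the model was fitted and adjusted over only the brightest probe set of each gene (limma adjusted p = 0.0471). It did not pass by limma with quantile normalization again (adjusted p = 0.0548) or cyclic loess (0.0561). Nor did it with the neighbours' median subtracted (0.0716) or the hybridization control term (0.173). The difference ranged from 0.91 to 1.65 with 1 array left out. Tnfrsf10b, a receptor for the ligand TRAIL, had differences of 0.01 and 0.05 with both groups below the median probe set.

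Aen, a nuclease that p53 induces in apoptosis, had negative differences on all 4 probe sets. Its brightest read 10.09 and 9.94 in the low and 9.47 and 9.56 in the high switching subclones, a difference of -0.50 ± 0.11 (limma adjusted p = 0.0788). Apaf1, the scaffold of the apoptosome, had differences of 0.14 and 0.29 with overlapping groups. Trp53inp1, a stress-induced nuclear protein, had 0.13 and 0.42 without overlap and without a call. Zmat3, an RNA-binding protein, differed as much within classes as between them: it read 7.28 in L25, 7.97 in L27, 7.87 in H23 and 8.56 in H27. Phlda3, an inhibitor of AKT, read 6.16 and 6.77 in the low and 6.31 and 6.74 in the high switching subclones. Eda2r, Perp, Dram1 and Epha2 were below the median probe set in both classes, with differences from -0.15 to 0.16.

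**Figure D3:**
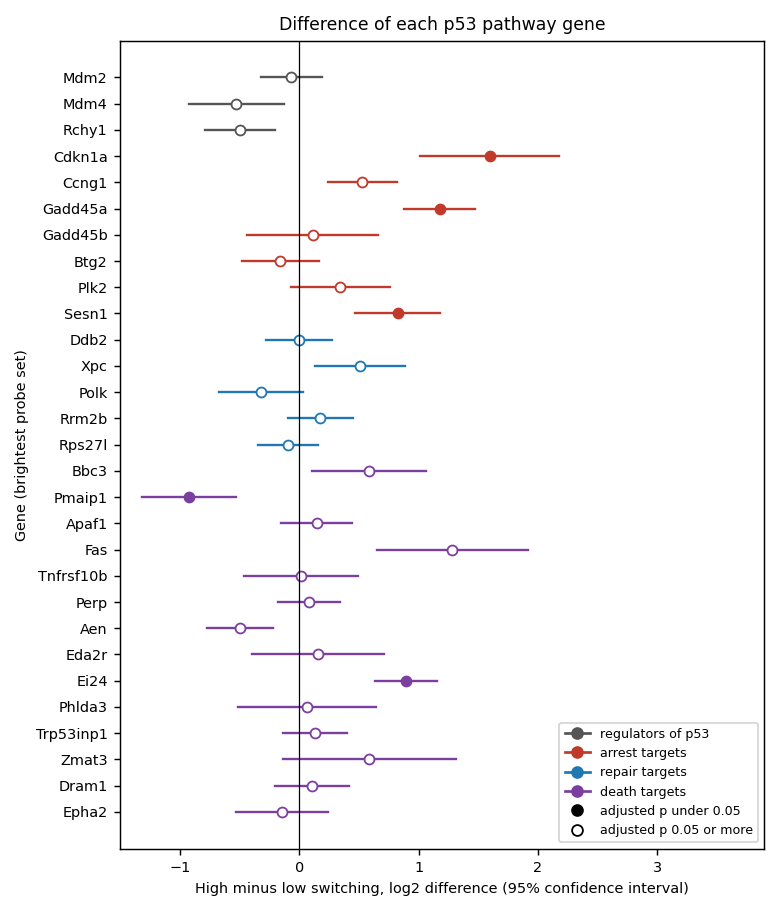
Log2 difference, high minus low switching, of 29 p53 pathway genes on their brightest probe set, with 95% confidence intervals from limma; filled points have an adjusted p under 0.05. The filled points are Cdkn1a, Gadd45a, Sesn1 and Ei24 to the right of 0 and Pmaip1 to the left.

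Probe sets of a gene mostly had the same sign. Of 16 genes with more than 1 probe set, 14 had 1 sign throughout, and Mdm4 and Rps27l had both. The other 13 genes had only 1 probe set, among them Gadd45a, Ei24, Pmaip1 and Fas, and could not be compared in this way. The median size of the difference between classes was 0.22 over the 57 probe sets and 0.13 over all probe sets. Within classes the members differed by a median of 0.14 in the low and 0.14 in the high switching pair, close to the 0.13 and 0.13 of all probe sets.

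Other genes of the pathway were read from lists that did not include the members. Of 40 measured genes listed here as further p53 targets, 4 rose and 0 fell, against 2.04% higher and 2.78% lower of all genes. Their median difference was 0.10, and whether p53 acts on any of them, Sesn3 included, was not tested. Those that rose were Sesn3, a sestrin like Sesn1 (1.10 ± 0.16), the small GTPase gene Rap2b (0.90 ± 0.12), Ier5, an immediate early gene (0.66 ± 0.12), and Steap3, an endosomal metalloreductase (0.61 ± 0.11). Sesn3 read 9.65 and 9.62 in the low and 10.52 and 10.95 in the high switching subclones. Its limma adjusted p was 0.026. Steap3 passed on all 3 of its probe sets, but Sesn3 on only 1 of 2, Rap2b on 1 of 4 and Ier5 on 1 of 3. The chromosomal neighbours of Sesn3 had a median difference of 0.58 and those of Rap2b 0.46. With the neighbours' median subtracted on each array, an alternative chosen after seeing the data, both calls ended: Sesn3 had 0.52 (limma adjusted p = 0.0774) and Rap2b 0.45 (limma adjusted p = 0.154). The call of Steap3 on its brightest probe set ended with a variance trend (limma adjusted p = 0.0695). Sesn2, the remaining sestrin, named after its values were seen, read 8.51 and 8.50 in the low and 8.92 and 8.93 in the high switching subclones, a difference of 0.42 ± 0.10 that did not pass (limma adjusted p = 0.0912). With 1 array left out, the calls of Steap3, Ier5 and Rap2b ended in every case, and that of Sesn3 held only without H23.

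Of 29 measured genes that act upstream of p53 1 rose and 1 fell, which is 3.45% each way and near the 2.04% and 2.78% of all genes, and their median difference was -0.05. Bcl6, a repressor of Trp53 transcription in germinal centre B cells, read 5.60 and 5.79 in the low and 7.08 and 7.18 in the high switching subclones. Its difference was 1.44 ± 0.12 (limma adjusted p = 0.00587), both of its probe sets passed, and the call of the brighter held with any 1 array left out. It ended with the hybridization control term in the model (limma adjusted p = 0.0646). The call also ended when limma tested for a fold above 1.5, although the estimated fold was 2.71. Chek2, a kinase that phosphorylates p53 after DNA breaks, read 9.34 and 9.41 in the low and 8.78 and 8.58 in the high switching subclones, a difference of -0.69 ± 0.12 (limma adjusted p = 0.0398). Its call ended with any 1 array left out, and also with the neighbours' median subtracted (-0.46, limma adjusted p = 0.0749). The kinases Atm and Atr had differences of 0.08 and -0.16, and Cdkn2a, whose ARF product restrains MDM2, read 8.91 and 9.32 in the low and 9.23 and 8.89 in the high switching subclones. These were named after their values were seen.

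Genes that p21 represses through the DREAM complex, include mitotic cyclins and kinases. Of 19 measured genes 0 passed on the brightest probe set, with a median of -0.07 and a range from -0.53 to 0.41. Without adjustment 3 had a p under 0.05 by limma, as did 4169 of all 18193 genes. The transcription factor gene Mybl2 fell on its dimmer probe set (-1.06), and had -0.53 on the brighter, where H27 read 7.23 and the other subclones 7.79 to 8.07. Cdk1, which drives entry into mitosis, read 11.85 and 11.90 in the low and 11.74 and 11.51 in the high switching subclones, and is named after its values were seen.

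**Figure D4:**
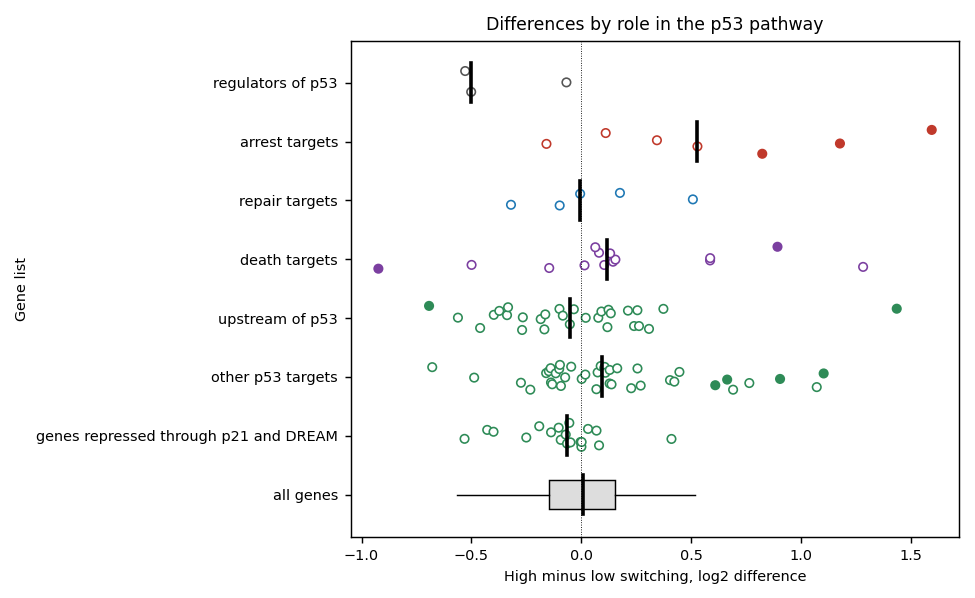
Log2 difference, high minus low switching, of each gene on its brightest probe set (points, filled where the limma adjusted p is under 0.05) by list, with the list median as a bar; the box at the bottom gives the quartiles and the lines the 5th and 95th percentiles of all genes. Arrest targets have a median of 0.53, while the repair and DREAM lists lie near that of all genes, 0.01.

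Each member was also set beside its 20 neighbouring genes on each side with a mean of at least 7. The neighbours of Cdkn1a on chromosome 17, Sesn1 on chromosome 10 and Ccng1 on chromosome 11 had median differences of -0.07, -0.06 and -0.04. Those of Gadd45a on chromosome 6 had 0.21 and those of Ei24 on chromosome 9 had 0.22. After the median of the neighbours was subtracted on each array, an alternative chosen after seeing the data, all 6 called probe sets still passed by limma, with 0.96 for Gadd45a, 0.68 for Ei24 and -0.82 for Pmaip1. A Ccng1 probe set (0.57, limma adjusted p = 0.0472) and another of Sesn1 (0.90, limma adjusted p = 0.0218) passed as well. For other members the median of the neighbours was a larger share of the difference. Zmat3 on chromosome 3 had 0.59 and its neighbours 0.42, Fas on chromosome 19 had 1.28 and its neighbours 0.34, Xpc on chromosome 6 had 0.51 and its neighbours 0.23, Aen on chromosome 7 had -0.50 and its neighbours -0.22, and Rchy1 on chromosome 5 had -0.50 and its neighbours -0.25.

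**Figure D5:**
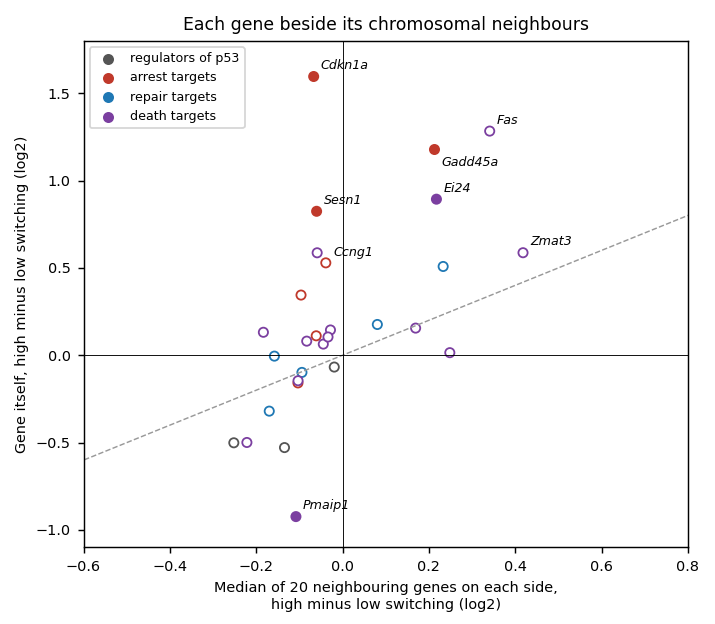
Log2 difference, high minus low switching, of each of 29 p53 pathway genes (vertical axis) against the median difference of its 20 neighbouring genes on each side (horizontal axis); filled points passed limma, and on the dashed line both are equal. Cdkn1a and Sesn1 stand high above neighbours near 0, and Zmat3 lies close to the line.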

How the data were processed

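Biotin-labelled RNA of each subclone went onto 1 Affymetrix array, per the labels. The deposited intensities are linear, and RMA is named, without a version, in the submitters' processing notes. RMA can shrink differences of dim probe sets. Values were put on the log2 scale here. For the authors' genome build, the sources used here give none.

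Leaving out 64 control probe sets, 45037 were fitted in R 4.3.3 by limma 3.58.1 (lmFit, eBayes). P-values were two-sided and adjusted over all probe sets by Benjamini-Hochberg, with calls at 0.05, and errors are moderated standard errors. The platform annotation names 1 symbol for 34945 probe sets, and a gene was represented by its brightest one. Gene order and promoters came from RefSeq (GRCm38.p6). Simulated data for this comparison had 45037 probe sets and 10 draws, with 200 probe sets changed, all with a mean of at least 7. Noise was independent between arrays, with variances drawn from limma's own pooled estimate. The fit recovered 0% at a log2 size of 0.5, 38.6% at 1, 97.2% at 2 and 99.6% at 4, and 5.78% of its calls were false. These shares belong to that setting and are not error rates of the calls above.

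Array values are given for every called member and for the regulators, by rule, and for further members chosen after their values were seen. Of other pathway lists up to 4 called genes in each direction were named by size. Members, lists and tests were chosen with earlier results of these data known. Alternatives covered the variance model, dim probe sets, normalization, the probe sets kept, a test for a fold above 1.5 and each array left out. Figures were drawn with matplotlib 3.10.9.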

Additional observations from a re-analysis of the deposited data

How the results depend on the processing

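No paired analysis was possible, because each array is a separate subclone of 1 class and the labels name no pairs. Member probe sets called higher numbered 5 and lower 1. When limma tested for a fold above 1.5 instead of any difference, both counts were 0 (59 higher and 104 lower of all probe sets). The estimated folds of the called member probe sets, 1.77 to 3.02, were themselves above 1.5. With the hybridization control level as a term, chosen after seeing the data, both counts were 0 (58 and 94). Without probe sets that may match several transcripts 3 were higher, and the median difference of the members was 0.155, against 0.111. It was 0.153 with the median of neighbouring genes subtracted, chosen after seeing the data. With 1 array left out, 1 to 3 member probe sets were higher and 0 lower, 112 to 253 of all probe sets were higher and 196 to 329 lower, and the median was 0.094 to 0.168. The calls made with a variance trend, a mean of at least 6, quantile normalization again and cyclic loess held all 6 member probe sets called. No difference changed sign on a called member probe set or on the brightest probe set of a regulator. Other member probe sets did change sign, and not all are named here. With the neighbours' median subtracted, the second Mdm2 probe set went from -0.0009 to 0.0183. The brighter probe sets of Ddb2 and Tnfrsf10b went from -0.005 to 0.153 and from 0.015 to -0.234, and Eda2r from 0.155 to -0.014. Probe sets of Polk, Aen and Rps27l also changed sign in that setting. Without L25, Gadd45b went from 0.11 to -0.24 on its brightest probe set. The number of arrays, and for Fas and other dim genes the signal over background, limits these values.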
